A study of Mus musculus with 4 samples.

Results

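The genes examined were those of respiratory complexes II to V and of cytochrome c, the shuttle between complexes III and IV. Members were taken by symbol: Sdha, Sdhb, Sdhc and Sdhd, Cyc1 and Cycs, and all symbols beginning with Uqcr, with Cox4 to Cox8 or with Atp5. This gave 49 genes of the 23444 distinct symbols in the series-wide table, namely 4 of complex II, 9 of complex III, the carrier Cycs, 18 of complex IV and 17 of complex V. Of these, 47 reached a mean of at least 1 FPKM over the 4 libraries and were tested. The other 2 were Cox8c, listed at 0 in every library, and Cox7b2, at 0.192 and 0.371 FPKM in control and 0.0572 and 0.145 FPKM in the overexpressing hearts. Both are isoforms known from testis.

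RNA was sequenced from hearts of mice aged 12 weeks. The control group (genotype alphaMHCMerCreMer+/-, 2 libraries) carried a tamoxifen-inducible Cre recombinase under the alpha myosin heavy chain promoter, which is active in cardiomyocytes. The Tbx20_OE group (alphaMHCMerCreMer+/-;CAGCATTbx20, 2 libraries) carried the same Cre and a transgene for Tbx20, a cardiac T-box transcription factor, which was induced at 8 weeks, 4 weeks before the hearts were taken. Whether the control mice were given the inducing agent as well is not stated in the labels. Each library came from 1 heart, and what is compared is therefore overexpression on top of a Cre that both groups share. Tbx20 itself measured 6.99 and 4.58 FPKM in the 2 controls and 11.0 and 16.4 FPKM in the 2 Tbx20_OE libraries, where FPKM means fragments per kilobase, scaled to the total of mapped fragments. Its log2 fold change of 1.11 (standard error 0.30) did not pass the test over all genes (limma adjusted p = 0.848, Benjamini-Hochberg).

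The libraries did not stand equally close to each other. Control replicate 2 correlated with the other libraries at a Pearson r of 0.927 to 0.957 across the 10513 genes tested, while the highest r between any libraries was 0.982. The summed level of 9 ventricular cardiomyocyte markers was 38764 to 44567 FPKM in all 4 libraries. The single markers were less even, with control 2 the lowest library for 5 of the 9 and the highest for 4. Pln was at 934 FPKM in control 2 against 1805 to 2118 in the others, and Myh7 at 419 against 181 to 248. The 7 atrial markers summed to 145 FPKM in control 1, 3758 in control 2, 254 in Tbx20_OE 1 and 143 in Tbx20_OE 2. Of these 7, 6 were highest in control 2. Myl7, the atrial myosin light chain, was at 0.0536, 958, 4.77 and 0.107 FPKM in that order of libraries. Sln, the sarcolipin of atrial muscle, was at 0.0761, 613, 2.14 and 0 FPKM, so the hearts were not alike in the atrial RNA they held. Adipocyte markers (5 genes) summed to 39.3 FPKM in control 2 and to between 1.09 and 2.34 FPKM in the others, and red cell markers (7 genes) to 3016 FPKM in control 2 and between 404 and 1542 FPKM in the others. Of the 7 red cell genes 5 were highest in control 2. Hba-a1 was instead low in both controls: control 1 had 0.00712 FPKM, control 2 had 0.29, Tbx20_OE 1 had 254 and Tbx20_OE 2 had 155. It was 1 of the 2 genes called over all genes tested (log2 fold change 7.45, limma adjusted p = 0.00497). Hbb-b1 was low in control 2 alone, with 0.000707 FPKM there against 286 to 763 FPKM in the others. These globin genes have near-identical copies, and the series-wide table lists Hba-a1 and Hba-a2 in control 2 from another copy than in the other libraries. The single values of the globin genes, the call of Hba-a1 and the red cell sums that include them are therefore uncertain. Why Hba-a1 was low in control 1 too was not tested. Fibroblast, endothelial and macrophage markers summed to 426 to 563, 109 to 144 and 90.5 to 147 FPKM over the 4 libraries. Control 2 was the highest library for 4 of the 7 fibroblast markers and the lowest for 2. For the 6 endothelial markers it was the lowest for 4 and the highest for 1. Smooth muscle markers summed to 69.2 and 91.9 FPKM in control and 129 and 97.3 FPKM in Tbx20_OE. All 5 had a higher mean in Tbx20_OE, and for 4 the groups did not overlap (28.1% of all genes). None of the 5 passed the limma test. Skeletal muscle markers summed to 1366 to 2153 FPKM, mostly from Ckm (1072 to 1697 FPKM) and Acta1 (148 to 454 FPKM). Each other skeletal muscle marker was at most 1.79 FPKM, with Myh4 listed at 0 throughout. The part of this tissue makeup in the values given here was not tested. In tissue RNA, fewer cells of a type and less RNA per cell cannot be told apart.

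Complex II, succinate dehydrogenase, passes electrons from the citric acid cycle to ubiquinone. Complex III hands them to cytochrome c, complex IV (cytochrome c oxidase) passes them from there to oxygen, and complex V (ATP synthase) uses the proton gradient that complexes III and IV help to build. The heart, which depends on oxidative metabolism, is among the tissues richest in these complexes. Some subunits of complexes III, IV and V are encoded in the mitochondrial genome. Of these genes 6 were looked up by symbol, and none was found in the values used. Unless listed under other names, they are missing from the ranks and the summed FPKM given below. The rule also takes in genes that are not structural subunits: Cox7a2l, a factor that joins complexes III and IV, and Atp5s and Atp5sl, which are named after complex V.

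These transcripts were among the most abundant of the heart. By mean FPKM, 22 of the 49 genes stood among the 50 highest genes, 31 among the 100 highest and 37 among the 200 highest. Their summed level was 71901 FPKM in control 1, 76901 in control 2, 77217 in Tbx20_OE 1 and 61434 in Tbx20_OE 2. That was 15.2%, 15.7%, 15.1% and 13.6% of the summed FPKM of each library. Tbx20_OE 1 was nearly level with control 1 in this share, and Tbx20_OE 2 was the library that stood lower. Complex IV ranged from 5.11% in Tbx20_OE 2 to 6.91% in control 2, and complex II, with the smallest share, from 0.357% in control 2 to 0.491% in control 1.

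**Figure D1:**
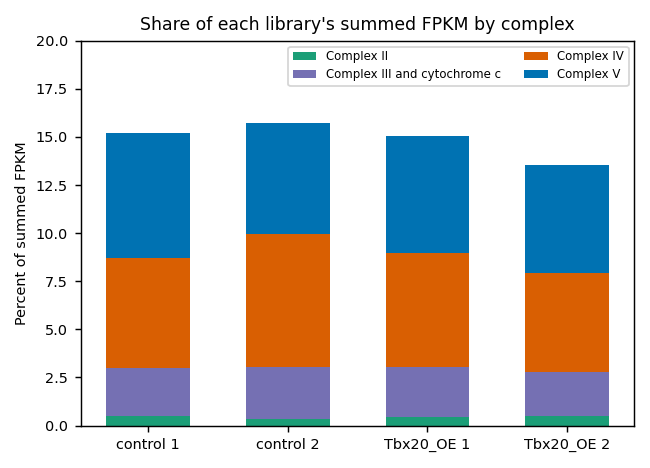
Percent of the summed FPKM of each library held by the genes of complexes II, III with cytochrome c, IV and V, with a bar for each of the 2 control and 2 Tbx20_OE libraries. The bars reach 15.2%, 15.7%, 15.1% and 13.6%, and Tbx20_OE 2 is the lowest.

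No gene of complexes II to V differed between Tbx20_OE and control hearts by the test. At an adjusted p of 0.05 over all 10513 genes, limma called none of the 47, against 0.019% of all genes tested. None had an unadjusted p under 0.05 either, against 1.52% of all genes, and the smallest unadjusted p among them was 0.167 (adjusted p = 0.848 by limma). Mean expression was higher in Tbx20_OE for 21 of the 47 and lower for 26, where 71.1% of all genes were higher. The median log2 fold change of the 47 was -0.07, beside 0.15 over all genes tested. This count depended on the scaling: it was 14 of 47 after centring each library on its median, which took the median of all genes to -0.01, and 27 of 47 in the authors' quantile-normalized values. At least 1.5-fold higher in Tbx20_OE were 5 members, Sdha, Sdhd, Uqcrc2, Atp5a1 and Atp5f1 (5.46% of all genes), and at least 1.5-fold lower was none (1.32% of all genes).

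Both Tbx20_OE values exceeded both control values for 3 of the 47, Cycs, Uqcrc2 and Atp5c1, and fell short of both for 2, Atp5e and Atp5j. Over all genes tested these shares were 28.1% and 4.77%. Control 2 was the lowest of the 4 libraries in 17 of the 47 (54.3% of all genes) and the highest in 22 (25.5% of all genes). Tbx20_OE 2 was the lowest in 28 (18% of all genes), and Tbx20_OE 1 was above Tbx20_OE 2 in 42 (49.9% of all genes). Control 1 lay between the 2 Tbx20_OE libraries for 33 of the 47 (37.9% of all genes). The loci of 6 members overlap another gene (Atp5b and Mir677, Atp5d and Bc1, Atp5f1 and Wdr77, Atp5j and Gabpa, Cox6a2 and Itgad, Uqcrc2 and Pdzd9), and whether the authors' counting used strand is not given in the sources used here. Cycs and other genes of these families have processed pseudogenes, and how reads shared with such copies were counted is likewise not given.

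**Figure D2:**
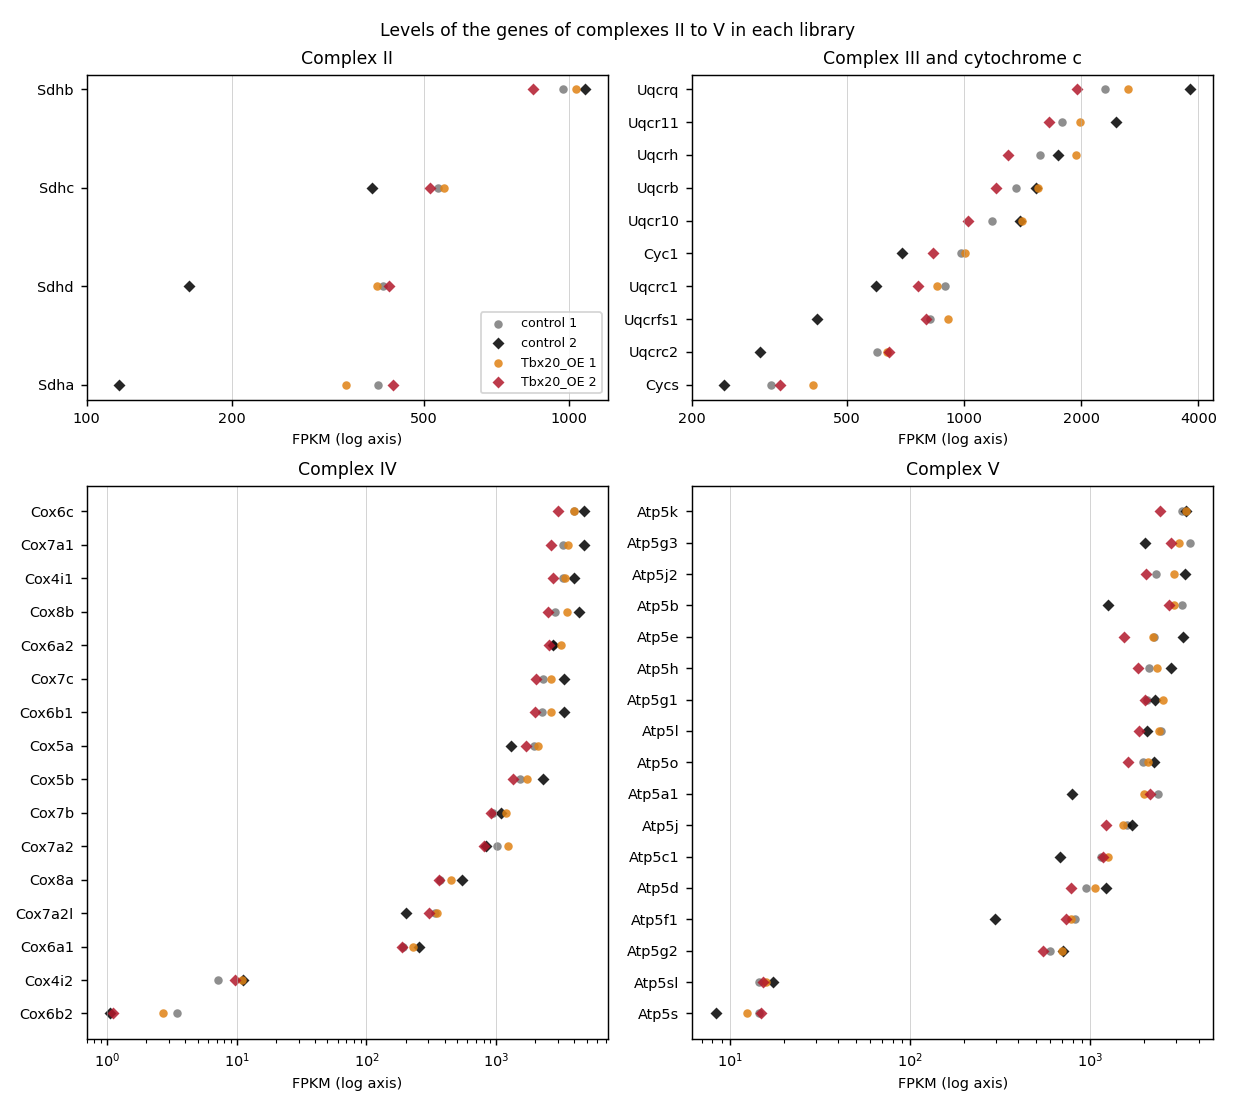
FPKM on a log axis of each of the 47 tested genes in the 2 control and 2 Tbx20_OE libraries, by complex. Grey and black mark control 1 and control 2, orange and red mark Tbx20_OE 1 and Tbx20_OE 2; the black diamonds stand far to the left for Sdha, Sdhd, Uqcrc2, Uqcrfs1, Atp5a1, Atp5b and Atp5f1.

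Complex II had the highest median log2 fold change of the 4 complexes, 0.44, and control 2 was the lowest library for 3 of its 4 subunits and the highest for the other. Sdha, the flavoprotein that oxidises succinate (chromosome 13 from 74322255 to 74350240 of mm10), was at 402 FPKM in control 1, 117 in control 2, 345 in Tbx20_OE 1 and 432 in Tbx20_OE 2. Sdhd, a membrane anchor (chromosome 9 from 50596340 to 50603849), was at 411, 163, 400 and 423 FPKM in the same order. In both genes 3 libraries lay close together and control 2 was low, so that the groups overlapped. Mean Sdha was 260 ± 202 FPKM for the controls and 389 ± 62.0 FPKM for Tbx20_OE (SD, n = 2 each). The log2 fold change was 0.83 for Sdha (standard error 0.59) and 0.67 for Sdhd (0.47), each with a limma adjusted p = 0.848. Sdhc, the other anchor subunit, was at 535, 390, 551 and 515 FPKM (log2 fold change 0.22, standard error 0.29). Sdhb, the iron-sulfur subunit that takes electrons from Sdha, was instead highest in control 2, at 971, 1078, 1036 and 841 FPKM (log2 fold change -0.13, standard error 0.27).

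The ratio of Sdhb to Sdha in FPKM was 2.42 in control 1, 9.21 in control 2, 3.0 in Tbx20_OE 1 and 1.95 in Tbx20_OE 2. The subunits of 1 complex thus stood in a different proportion in control 2 from that in the other 3 libraries. This ratio and the other subunit ratios below were chosen after their values were seen and have no test. Without control 2 the log2 fold change was -0.06 for Sdha, 0.00 for Sdhd and -0.01 for Sdhc, and the median of the complex went from 0.44 to -0.03. Without control 1 the median was 0.89, and Sdha (log2 fold change 1.71, limma adjusted p = 0.0216) and Sdhd (1.33, adjusted p = 0.0315) passed the test. In that fit 13.6% of all genes passed, and the spread of the 1 control left is taken to equal that between the Tbx20_OE libraries.

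The promoters of Sdha and Sdhd are shown because these 2 subunits were low in the same library, by more than any other gene of complex II. Sequences are RefSeq's, from 250 bases before to 50 bases after the start, on build GRCm38.p6 (the patched form of mm10), minus strand, at chr13:74350191-74350490 for Sdha and chr9:50603800-50604099 for Sdhd. Capitals mark matches, on either strand, to motifs known from promoters of respiratory chain genes: NRF-1 (GCGCA and GCGC with 1 base between), GABP, also called NRF-2 (CCGGAAG), ERR (AAGGTCA), YY1 (AAGATGGC), MEF2 (CTA and TAG with 4 bases between) and Sp1 (GGGCGG).
Sdha: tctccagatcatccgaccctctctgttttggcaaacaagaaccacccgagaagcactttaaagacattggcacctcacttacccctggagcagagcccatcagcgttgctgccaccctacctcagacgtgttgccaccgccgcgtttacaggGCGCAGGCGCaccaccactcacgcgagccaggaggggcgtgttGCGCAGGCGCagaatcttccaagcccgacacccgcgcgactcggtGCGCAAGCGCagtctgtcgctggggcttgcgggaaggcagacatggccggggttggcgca
Sdhd: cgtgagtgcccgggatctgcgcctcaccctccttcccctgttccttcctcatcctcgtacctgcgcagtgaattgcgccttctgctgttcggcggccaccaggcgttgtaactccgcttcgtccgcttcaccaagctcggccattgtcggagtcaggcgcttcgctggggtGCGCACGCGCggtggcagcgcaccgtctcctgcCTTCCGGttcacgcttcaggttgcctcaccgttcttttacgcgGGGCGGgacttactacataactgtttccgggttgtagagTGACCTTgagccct
Sdha held 3 NRF-1 matches, and Sdhd held 1 match each to NRF-1, GABP, Sp1 and ERR, with no overlap between them. A promoter was found in the table for 38 of the 49 genes, and 1 start was taken for each. The promoters of all genes set beside them hold more than 1 start for some genes and were not limited to the genes tested. Among those 38, NRF-1 letters were found in 9 (23.7%, against 4.63% of 32544 promoters of all genes), and GABP letters in 11 (28.9%, against 8.91%). ERR letters were found in 5 (13.2%, against 4.71%), YY1 letters in 3 (7.89%, against 2.77%), Sp1 letters in 15 (39.5%, against 35.9%) and MEF2 letters in 1 (2.63%, against 3.70%). The median GC content was 56.5% in the 38 promoters and 53.0% in all. A match is a run of letters and not a measured binding site.

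Complex III held large subunits that were low in control 2 and small ones that were high there, and its carrier Cycs, with a short coding sequence, was also lowest there. Uqcrc2, a core subunit (chromosome 7 from 120635189 to 120659523), was at 599 FPKM in control 1, 299 in control 2, 633 in Tbx20_OE 1 and 642 in Tbx20_OE 2 (log2 fold change 0.59, standard error 0.39, limma adjusted p = 0.848). Uqcrfs1, the Rieske iron-sulfur protein, was at 816, 419, 907 and 800 FPKM (0.54, standard error 0.39). Cycs, cytochrome c itself, was at 320, 242, 410 and 337 FPKM (0.42, standard error 0.29). For Uqcrc2 and Cycs both Tbx20_OE values exceeded both control values, while for Uqcrfs1 Tbx20_OE 2 lay just under control 1. Without control 2 the log2 fold changes were 0.09, 0.06 and 0.22 for Uqcrc2, Uqcrfs1 and Cycs, and without control 1 they were 1.09, 1.02 and 0.62.

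The most abundant transcripts of complex III were those of its small subunits. Uqcrq was at 2309, 3809, 2637 and 1952 FPKM. Uqcr11 was at 1787, 2454, 1985 and 1657 FPKM. Uqcrh, the hinge protein next to cytochrome c1, was at 1570, 1740, 1942 and 1300 FPKM, and Uqcrb was at 1360, 1532, 1547 and 1206 FPKM. All 4 were lowest in Tbx20_OE 2, and Uqcrq and Uqcr11 were highest in control 2. Uqcr10, Uqcrc1 and Cyc1, which carries the haem of cytochrome c1, ranged from 593 to 1408 FPKM over the 4 libraries. The ratio of Uqcrq to Uqcrc2 was 3.85 in control 1, 12.7 in control 2, 4.16 in Tbx20_OE 1 and 3.04 in Tbx20_OE 2. Over the 10 genes, 5 were higher and 5 lower in Tbx20_OE, with a median log2 fold change of 0.04, which was 0.23 without Tbx20_OE 2, 0.13 without control 1 and -0.12 without Tbx20_OE 1.

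No complex IV transcript stood apart between the groups. Of 16 tested genes, 6 had a higher and 10 a lower mean, and the median log2 fold change was -0.14. For all 16 the groups overlapped, and for all 16 Tbx20_OE 1 was above Tbx20_OE 2. The most abundant was Cox6c, at 3952 FPKM in control 1, 4784 in control 2, 3963 in Tbx20_OE 1 and 3021 in Tbx20_OE 2 (log2 fold change -0.33, standard error 0.30, and -0.53 to -0.13 with any 1 library left out). Cox7a1, the heart and muscle form of its subunit, was at 3272, 4767, 3582 and 2648 FPKM (-0.36, standard error 0.33, but -0.09 without control 2, -0.14 without Tbx20_OE 2 and -0.63 without control 1). Cox4i1, the common form of its subunit, was at 3247, 4012, 3394 and 2743 FPKM. In these 3 genes control 2 was the highest library, Tbx20_OE 2 the lowest and the other 2 lay between.

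Cox7a2l, the supercomplex factor, went the other way, at 337, 202, 348 and 305 FPKM (log2 fold change 0.32, standard error 0.34), with control 2 the lowest. Without control 2 the median log2 fold change of complex IV was 0.00, and the value for Cox7a2l was -0.05. The median of the complex was -0.35 without Tbx20_OE 1, -0.34 without control 1 and 0.03 without Tbx20_OE 2. Cox5a, Cox5b, Cox6b1, Cox7b and Cox7c, the remaining subunits above the filter, ranged from 907 to 3332 FPKM.

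Muscle isoforms made up most of the transcripts wherever complex IV has a muscle and a common form. The 7 isoform pairs of complexes IV and V were compared between the groups by an exact test. With 2 libraries against 2, no pair could have passed it whatever its values. Cox6a2, the heart and muscle form (chromosome 7 from 128205435 to 128206366), was at 2759, 2725, 3175 and 2535 FPKM, and its partner Cox6a1 at 191, 254, 228 and 187 FPKM. Cox6a2 was thus 93.5% and 91.5% of the pair in control and 93.3% and 93.1% in Tbx20_OE. Cox8b, at 2844, 4350, 3517 and 2512 FPKM, stood beside Cox8a at 369, 545, 446 and 361 FPKM. Cox8b was 88.5%, 88.9%, 88.7% and 87.4% of its pair, a narrow range beside the 1.73-fold range of Cox8b itself between libraries. Cox7a1 was 76.3% and 85.2% of its pair in control and 74.4% and 76.5% in Tbx20_OE, beside Cox7a2 at 1016, 829, 1235 and 811 FPKM. Control 2 was the library with the highest share of Cox7a1.

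The Tbx20_OE minus control difference in the log2 ratio was 0.14 for Cox6a2 to Cox6a1 (exact permutation test, two-sided p = 1), -0.08 for Cox8b to Cox8a (exact p = 0.667) and -0.48 for Cox7a1 to Cox7a2 (exact p = 0.667). The Cox7a1 difference was -0.07 without control 2 and -0.90 without control 1. With 2 libraries against 2 this test cannot go below 0.333, and adjusted over the 7 pairs every exact p was 1. Of the forms known from other tissues, Cox4i2, the lung form, was at 7.15, 11.2, 11.0 and 9.73 FPKM. That was 0.220%, 0.279%, 0.322% and 0.353% of its pair with Cox4i1, higher in both Tbx20_OE libraries (log2 ratio difference 0.43, exact p = 0.333, the smallest possible). The difference was -0.01 in the quantile-normalized values. Cox6b2, the testis form, was at 3.49, 1.06, 2.71 and 1.11 FPKM, at most 0.154% of its pair with Cox6b1, which was at 2268, 3332, 2660 and 2005 FPKM. The log2 ratio difference for Cox6b2 was 0.13 (exact p = 1), and -0.71 without control 2.

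**Figure D3:**
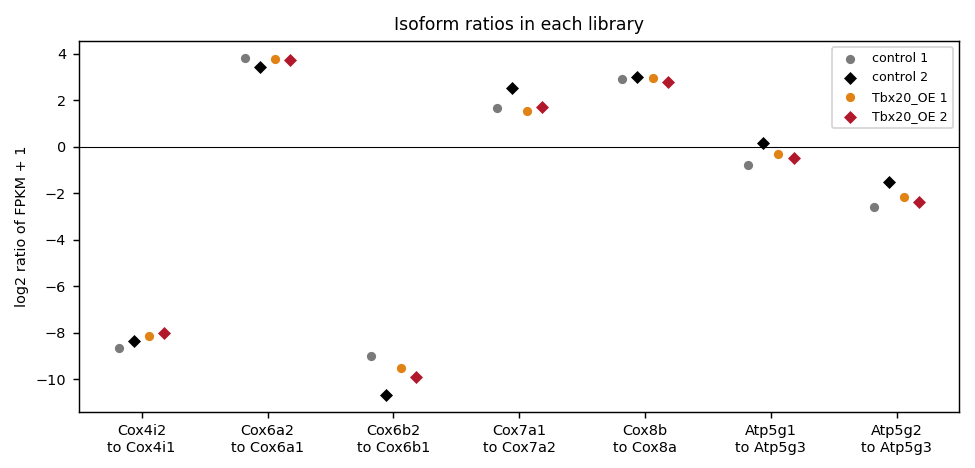
Log2 ratio of FPKM + 1 between an isoform and its partner in each of the 4 libraries, for 5 pairs of complex IV and 2 of the c subunit of complex V. Ratios above 0 mean that the first-named isoform is the more abundant; Cox6a2, Cox7a1 and Cox8b lie above 0 and Cox4i2 and Cox6b2 far below it in all 4 libraries.

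The promoters of the muscle and common forms of 2 of these pairs are set beside each other to show how they differ in base composition and motif letters. They lie at chr7:30183921-30184220 (Cox7a1, plus strand), chr9:79759804-79760103 (Cox7a2, minus strand), chr7:140900397-140900696 (Cox8b, minus strand) and chr19:7217567-7217866 (Cox8a, minus strand), with capitals as above.
Cox7a1: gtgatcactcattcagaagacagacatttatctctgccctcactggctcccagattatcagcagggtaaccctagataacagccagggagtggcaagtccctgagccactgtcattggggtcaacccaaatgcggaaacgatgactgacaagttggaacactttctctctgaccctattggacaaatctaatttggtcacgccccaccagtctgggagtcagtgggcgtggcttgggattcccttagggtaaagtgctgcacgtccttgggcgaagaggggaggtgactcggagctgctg
Cox7a2: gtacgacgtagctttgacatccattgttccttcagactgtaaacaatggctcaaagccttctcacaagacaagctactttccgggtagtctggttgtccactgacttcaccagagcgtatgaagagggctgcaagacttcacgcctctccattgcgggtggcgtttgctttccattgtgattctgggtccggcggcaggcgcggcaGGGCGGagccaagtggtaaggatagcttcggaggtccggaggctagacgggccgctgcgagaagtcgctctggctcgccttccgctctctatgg
Cox8b: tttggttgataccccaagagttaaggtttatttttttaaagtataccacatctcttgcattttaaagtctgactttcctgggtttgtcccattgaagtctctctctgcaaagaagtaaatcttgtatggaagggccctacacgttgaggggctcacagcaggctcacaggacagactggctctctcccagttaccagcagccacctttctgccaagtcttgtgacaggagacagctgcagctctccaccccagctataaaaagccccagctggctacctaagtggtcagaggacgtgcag
Cox8a: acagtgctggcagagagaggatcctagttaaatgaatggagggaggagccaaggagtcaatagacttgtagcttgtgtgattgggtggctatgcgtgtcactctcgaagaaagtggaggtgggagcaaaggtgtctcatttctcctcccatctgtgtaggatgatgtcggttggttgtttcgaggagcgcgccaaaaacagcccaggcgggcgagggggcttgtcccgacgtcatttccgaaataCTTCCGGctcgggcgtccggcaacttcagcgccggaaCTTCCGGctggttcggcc
The windows of the muscle forms Cox7a1 and Cox8b held none of the 6 motifs, and their GC content was 53.0% and 48.3%. This was not particular to muscle forms: Atp5c1, Atp5d, Atp5g1, Cox7b, Cox7c, Uqcr10 and Uqcrfs1 held none either. Their GC content ran from 43.3% (Cox7b and Uqcr10) to 62.3% (Uqcrfs1). No promoter was found for the muscle form Cox6a2. Cox7a2 held 1 Sp1 match at a GC content of 56.7%, and Cox8a held 2 GABP matches at 56.0%.

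Complex V held both large subunits that were low in control 2 and small ones that were high there. Atp5b, the catalytic beta subunit, was at 3243 FPKM in control 1, 1259 in control 2, 2914 in Tbx20_OE 1 and 2730 in Tbx20_OE 2. Atp5a1, the alpha subunit that alternates with it in the F1 head, was at 2370, 794, 1988 and 2162 FPKM (log2 fold change 0.60, standard error 0.54). Atp5f1, subunit b of the peripheral stalk, was at 822, 296, 783 and 731 FPKM (0.62, standard error 0.51). In all 3 genes control 1 was the highest library and control 2 by far the lowest. The ratio of the 2 head subunits, Atp5b over Atp5a1, stayed between 1.26 and 1.59. Atp5c1, the gamma subunit of the rotating stalk, was at 1144, 678, 1249 and 1178 FPKM, so that both Tbx20_OE libraries were above both controls (log2 fold change 0.46, standard error 0.34). Without control 2 the log2 fold change was 0.08 for Atp5c1, -0.19 for Atp5a1 and -0.12 for Atp5f1. Without control 1 Atp5f1 passed the test (1.35, limma adjusted p = 0.0373), the only gene of the 47 to do so beside Sdha and Sdhd.

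Atp5e, the epsilon subunit of the same stalk, had the most negative fold change of the 47 genes and the smallest p. It was at 2262 FPKM in control 1, 3258 in control 2, 2236 in Tbx20_OE 1 and 1551 in Tbx20_OE 2. The groups did not overlap, but control 1 and Tbx20_OE 1 were nearly level. Its mean was 2760 ± 704 FPKM for the controls and 1893 ± 484 FPKM for Tbx20_OE (SD, n = 2 each). Its log2 fold change was -0.54 (standard error 0.34, unadjusted p = 0.167, limma adjusted p = 0.848), and from -0.81 to -0.28 with any 1 library left out. Atp5j, coupling factor F6 of the peripheral stalk, was at 1602, 1715, 1517 and 1229 FPKM (-0.28, standard error 0.27, and -0.43 to -0.13 with any 1 library left out, the latter without Tbx20_OE 2). The ratio of Atp5e to Atp5a1 was 0.955, 4.11, 1.12 and 0.717, again highest in control 2.

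Of the small membrane subunits, Atp5k was at 3230, 3415, 3384 and 2436 FPKM and Atp5j2 at 2311, 3359, 2923 and 2051 FPKM, both highest in control 2 and lowest in Tbx20_OE 2. The c subunit, which forms the rotor ring, is encoded by 3 genes that give the same mature protein. Atp5g3 was at 3570, 2025, 3112 and 2811 FPKM, Atp5g1 at 2060, 2291, 2552 and 2013 FPKM, and Atp5g2 at 600, 706, 700 and 547 FPKM. Atp5g3 gave 57.3%, 48.9% and 52.3% of the c subunit transcripts in control 1, Tbx20_OE 1 and Tbx20_OE 2. In control 2 Atp5g1 was ahead, with 45.6% against 40.3% for Atp5g3. The group difference in the log2 ratio to Atp5g3 was -0.08 for Atp5g1 and -0.21 for Atp5g2 (exact p = 1 for each), and 0.41 and 0.32 without control 2.

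Atp5d, Atp5h, Atp5l and Atp5o ranged from 780 to 2802 FPKM. Atp5s and Atp5sl were far lower, from 8.34 to 17.3 FPKM. Of the 17 genes of complex V, 7 had a higher and 10 a lower mean in Tbx20_OE, and the median log2 fold change was -0.07. The median was -0.09 without control 2, -0.14 without control 1, -0.25 without Tbx20_OE 1 and 0.09 without Tbx20_OE 2.

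**Figure D4:**
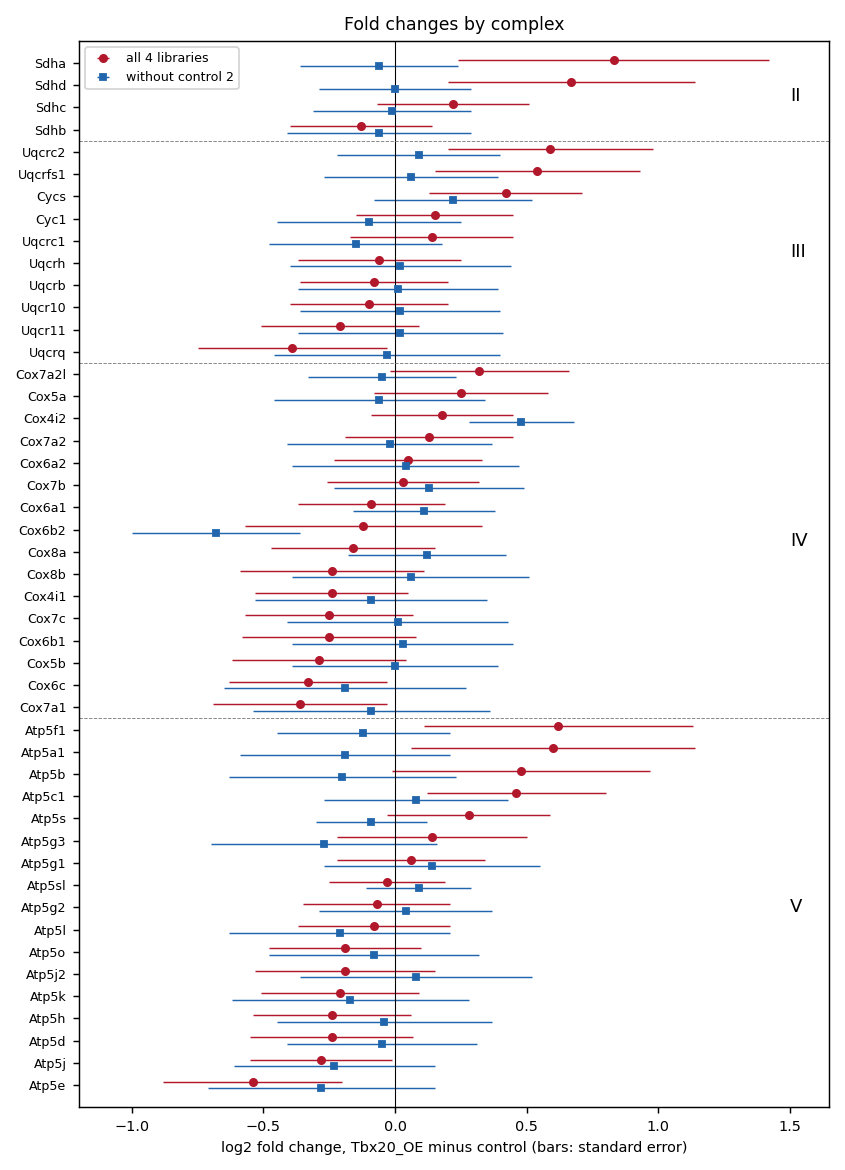
Log2 fold change, Tbx20_OE minus control, with its standard error, of the 47 tested genes grouped by complex, from all 4 libraries (red) and without control 2 (blue). The genes highest in red, Sdha, Sdhd, Atp5f1, Atp5a1 and Uqcrc2, lie between -0.19 and 0.09 in blue.

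Long genes of the set tended to be low in control 2, with coding length taken from the principal GENCODE transcript. Of the 9 genes with a coding sequence over 800 nt, 8 were lower in control 2 than the mean of the other 3 libraries, with a median deviation of -1.0 on the log2(FPKM + 1) scale. Among the 23 genes shorter than the median of 387 nt, 17 were above that mean, with a median deviation of 0.25. Tbx20_OE 2 deviated the opposite way for the shorter genes: 21 of the 23 lay below the mean of the other libraries, with a median of -0.39. The medians of the 9 longest genes were 0.28 in control 1, 0.33 in Tbx20_OE 1 and 0.25 in Tbx20_OE 2. The deviations of a gene cancel out over the libraries, so a low value in control 2 raises those of the others. Some genes did not follow this order. Cox7a2l (333 nt, deviation -0.71), Cox6b2 (264 nt, -0.67) and Cycs (315 nt, -0.55) were low in control 2 although short, and Sdhb was slightly high there (846 nt, 0.19).

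Across the 47 genes the Spearman rank correlation between coding length and deviation was 0.53 in control 1, -0.64 in control 2, 0.33 in Tbx20_OE 1 and 0.71 in Tbx20_OE 2. Over the 10186 genes tested that had an annotated length it was 0.06, -0.07, -0.24 and 0.18. The rank correlation with transcript GC content was -0.33, 0.41, -0.30 and -0.35 across the 47, and -0.32, 0.48, -0.16 and -0.41 over all genes. These are descriptions across genes of the same 4 libraries, and genes are not independent replicates. The deviations are likewise not independent between libraries. The fold changes carried the same order: the median was 0.48 for the 9 longest genes, 0.17 for the 24 of at least 387 nt and -0.16 for the 23 shorter ones. Both length splits were chosen after the values were seen. Without control 2 the 47 log2 fold changes had a median of -0.02 and lay between -0.68 and 0.48. In that comparison both Tbx20_OE libraries lay above the lone control for 5 members (45.2% of all genes) and below it for 9 (16.8% of all genes), 7 of these 9 in complex V.

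**Figure D5:**
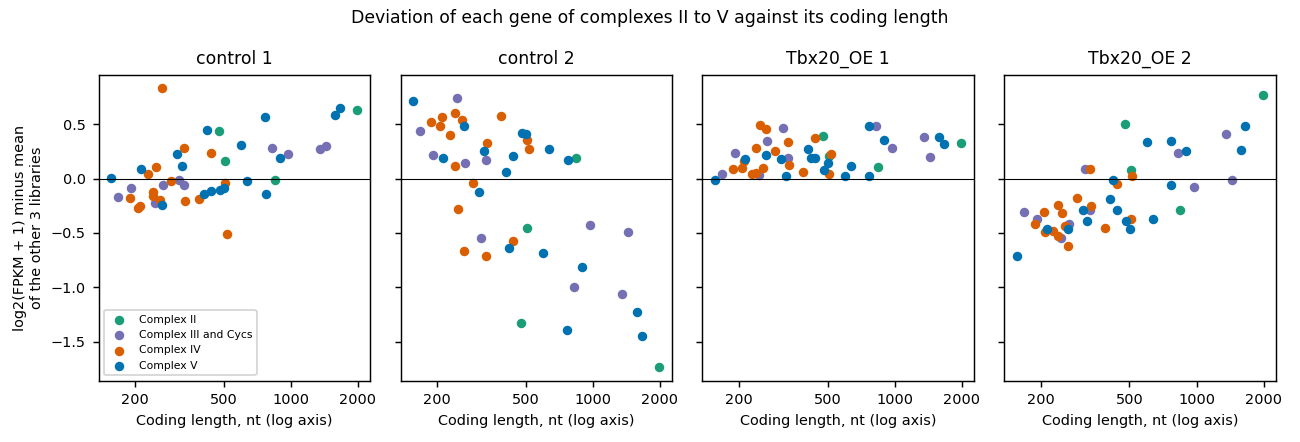
Deviation of each tested gene in a library from the mean of the other 3 libraries, in log2(FPKM + 1), against its coding length in nt on a log axis, with 1 panel for each library and a colour for each complex. Points fall from left to right in control 2 and rise in Tbx20_OE 2, with rank correlations of -0.64 and 0.71.

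Assembly factors, which build the complexes and are not part of them, also showed no gene that passed the test. Of 36 tested, 27 had a higher and 9 a lower mean, with a median log2 fold change of 0.18, beside 0.15 over all genes. Both Tbx20_OE libraries lay above both controls for 16 of the 36 (28.1% of all genes) and below them for 2 (4.77%), and control 2 was the lowest library in 21 (54.3%). The smallest p among them missed the adjustment as well (limma unadjusted p = 0.0727, adjusted p = 0.848). By complex, 2 of 3 were higher for complex II (median 0.05), 4 of 5 for complex III (0.26), 17 of 23 for complex IV (0.17) and 4 of 5 for complex V (0.16).

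The largest differences among them were in complex IV. Taco1, which activates translation of a mitochondrially encoded core subunit, was at 11.0 FPKM in control 1, 3.31 in control 2, 11.8 in Tbx20_OE 1 and 16.0 in Tbx20_OE 2 (log2 fold change 1.04, 0.30 without control 2). Cox18, which helps a core subunit through the inner membrane, was at 11.8, 5.37, 13.2 and 14.4 FPKM (0.71, and 0.21 without control 2). Both were above both controls in the Tbx20_OE libraries, and in both control 2 was much the lower control. Without control 1 both passed the test (limma adjusted p = 0.0137 for Taco1 and 0.0216 for Cox18), as did Uqcc1 (0.0381) and Atpaf1 (0.0400) of the genes named next. In that fit, in which the remaining control has no spread of its own, 13.6% of all genes passed.

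In complex III the same order was seen for Uqcc1, needed to make cytochrome b, at 46.8, 26.8, 49.0 and 52.9 FPKM (0.51, and 0.12 without control 2). Ttc19, which clears fragments of Uqcrfs1 from the complex, was at 8.55, 5.34, 8.73 and 10.4 FPKM (0.44, and 0.14 without control 2). For complex V, Atpaf1 and Atpaf2, chaperones of the beta and alpha subunits, were at 30.0, 13.8, 24.6 and 33.8 FPKM (0.48, and -0.05 without control 2) and at 15.7, 11.5, 17.7 and 16.9 FPKM (0.34). For complex II, Sdhaf2, which adds the flavin to Sdha, was at 15.1, 13.9, 17.2 and 18.2 FPKM (0.27). Sdhaf1, which helps to mature the iron-sulfur subunit Sdhb, was at 24.7, 36.2, 29.7 and 25.9 FPKM (-0.11). The 4 library levels of Sdhaf2 were the closest to each other of these 8, and its log2 fold change was 0.22 to 0.32 with any 1 library left out.

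The authors' deposited table, from cuffdiff on the same libraries, also held none of the 47 members with a q-value under 0.05 (0.241% of the 12850 genes it tested) and none with a p under 0.05 (2.58%). Members higher in Tbx20_OE numbered 15 in the authors' deposited table and those lower 32, where 48.8% of its genes were higher. The split there was 3 and 1 for complex II, 4 and 6 for complex III with Cycs, 4 and 12 for complex IV and 4 and 13 for complex V. Sdha stood at 434 FPKM for control and 574 FPKM for Tbx20_OE in the authors' deposited table (p = 0.364), and Atp5e at 4297 and 2889 FPKM (p = 0.159, the smallest of the 47). In both genes the control value there exceeded both control libraries, at 402 and 117 FPKM for Sdha and 2262 and 3258 FPKM for Atp5e. Levels in the authors' deposited table are therefore not on the scale of the FPKM per library. The authors' deposited table gives Cycs as slightly lower in Tbx20_OE, 555 FPKM for control and 540.0 FPKM for Tbx20_OE, the other direction from the FPKM per library. Atp5g1, Atp5g3, Atp5s, Cox7a2 and Cox7b also went from higher per library to lower there. None was among the genes that the authors' deposited table marks as selected (1.36% of those tested).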

How the data were processed

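RNA was extracted with Trizol from 4 hearts and made into Illumina libraries, per the labels' protocols. The submitters' processing notes list TopHat2 2.0.13, Cufflinks 2.1.1 and build mm10, with annotation and counting options not given in the sources used here. Deposited by the authors were FPKM per gene and library, a quantile-normalized FPKM table used as an alternative, and a cuffdiff table with p-values, q-values and selection flags as scores of 0 or 1, per the file headers. No counts were used, so depth and counting error are unknown.

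Values were analysed as log2(FPKM + 1), a scale that understates the change of low genes, for the 10513 genes with a mean of at least 1 FPKM. The limma 3.58.1 test with a mean-variance trend (R 4.3.3) had the group as its only term, with Benjamini-Hochberg adjustment at 0.05 over all genes. It was also run on simulated data with no outlying library, which does not show what changes could be detected here. Left out were 4 symbols with a failed estimate and 1 not matched between sources; where a symbol had several loci, its highest entry by mean was taken. All 49 members had the same values in both sources. Isoform ratios were compared by a two-sided exact permutation test. Coding length and transcript GC content came from the principal GENCODE M21 transcript, found for 96.9% of genes tested. The other steps used Python 3.11.15 with numpy 2.4.6, pandas 2.3.3, matplotlib 3.10.9 and scipy 1.17.1.

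Members, marker lists, assembly lists and isoform pairs were chosen with earlier results of these data known. Genes were named by a rule: in each complex the 4 highest in mean FPKM, the 3 with the largest fold change either way, those called, members of isoform pairs, all of complex II, and the 2 largest changes of each assembly list. Atp5c1 and Atp5j were added after their values were seen. Alternatives covered the pseudocount, filter, scaling, source, trend, the replicate block and leaving out each library; a crossed block and values centred in 10 bins of GC content or coding length per library were added after seeing the data. Same-numbered libraries deviated from their group means with a correlation of -0.45 across genes. With 2 libraries a group this cannot show whether the numbers stand for pairs, and they were not taken as pairs.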

Additional observations from a re-analysis of the deposited data

How the results depend on the processing

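No member passed the limma test under any alternative run except without control replicate 1, where 3 did (0 to 3 over the libraries left out). Over all genes, 2 were called higher and 0 lower. The count higher was 1 with a pseudocount of 0.1, without a filter, with the files per library, and in GC or coding length bins, and 6 to 1195 with a library left out; the count lower was 0 to 238. The replicate block gave 3 higher and 3 lower and changed no call of a member. Because same-numbered libraries deviated in opposite directions, crossed numbers were tried as a block: 12 genes were higher, 18 lower and 0 members called. The smallest limma adjusted p of a member was 0.232 there. This block was picked from the same data as the one leaving the smaller spread. Its larger counts and smaller p-values follow from that choice and do not show that the libraries are pairs. With a library left out, the median log2 fold change was -0.03 to 0.89 for complex II, -0.12 to 0.23 for complex III, -0.35 to 0.03 for complex IV and -0.25 to 0.09 for complex V.

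Without control 2, 7 of the 23 member and assembly genes with a printed log2 fold change changed sign. Their ranges with a library left out were -0.06 to 1.71 for Sdha, -0.01 to 0.45 for Sdhc, -0.05 to 0.69 for Cox7a2l, -0.12 to 1.35 for Atp5f1, -0.19 to 1.38 for Atp5a1, -0.38 to 0.16 for Sdhaf1 and -0.05 to 1.02 for Atpaf1. Sdhb changed sign in quantile-normalized values (0.01) and without Tbx20_OE 2 (range -0.28 to 0.02). Without control 1, 7 of the 23, most of them named for a large fold change, passed the test, as did 13.6% of all genes. Isoform ratio differences could not have passed the exact test with 2 libraries against 2. They changed sign in quantile-normalized values for Cox4i2 (-0.0117), Cox6b2 (-0.06) and Cox8b (0.14), and in GC bins for Cox6a2 (-0.0014) and Atp5g1 (0.08). With a library left out they ranged from -0.07 to 0.35 for Cox6a2, -0.71 to 0.97 for Cox6b2, -0.17 to 0.0076 for Cox8b, -0.90 to -0.07 for Cox7a1, 0.29 to 0.57 for Cox4i2, -0.56 to 0.41 for Atp5g1 and -0.74 to 0.32 for Atp5g2. A filter at a mean of 5 FPKM left no value for Cox6b2. Apart from the libraries left out, the cause of these changes was not tested. A group left with 1 library takes its spread from the other group. Depth is unknown, and 2 libraries a group limit what could be detected.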
